A study of Rattus norvegicus with 6 samples.

Results

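The NF-κB subunits, their inhibitors and the kinases that release them were followed in the ovaries of neonatal Wistar rats given lipopolysaccharide (LPS), the cell wall component of Gram-negative bacteria, or saline. The set held 10 genes. These were the subunits Rela, Relb, Rel, Nfkb1 and Nfkb2, the inhibitors Nfkbia and Nfkbib, and the IκB kinase genes Chuk, Ikbkb and Ikbkg. Its members were found as every non-control probe whose RefSeq accession matched one of these symbols, whatever its signal, and 7 genes with 8 probes were found among the 15154 gene symbols and 30367 probes of the array. Rela had 2 probes and each of the other genes had 1. Relb, Rel and Nfkb1 had no probe that could be matched to them and were not analysed here. Female pups were injected intraperitoneally with 0.05 mg/kg LPS from Salmonella Enteritidis or with saline on postnatal day (PND) 3 and again on PND 5, and whole ovaries were collected on PND 7. Total ovarian RNA was hybridised to 1-colour Agilent whole genome rat arrays, 3 for each treatment, and the question put to them was which inflammatory genes differed in the ovary after the challenge. The labels number the arrays as replicates, and the paper calls them biological replicates. Whole litters were allocated to 1 treatment, so differences between litters cannot be separated from the treatment. The paper took the animals for the arrays from 2 litters per treatment, so arrays of a treatment can share a litter. The labels do not say which pups and litters gave which array, so the p-values measure the spread between these 6 arrays.

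NF-κB is a dimeric transcription factor that rests in the cytoplasm, bound by an IκB protein. When Toll-like receptor 4 recognises LPS, adaptor proteins and ubiquitin ligases activate the IκB kinase complex, which marks IκB for destruction, and the freed dimer enters the nucleus. Most of this control lies in protein modification and location, which RNA arrays do not measure. Some of the genes involved are also transcribed from NF-κB sites of their own. Nfkbia, which encodes IκBα, is the textbook example, since its new protein carries NF-κB back out of the nucleus, and Nfkb2 is another gene known to be induced by the pathway.

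The 250 bases before the annotated start of these 2 genes are shown because both are measured members and both hold a match to the κB consensus. The sequences are from RefSeq, build GRCr8, in the direction of transcription, and capitals mark the match. The Nfkbia stretch lies at chr6:78597073-78597322 on the minus strand and the Nfkb2 stretch at chr1:255108124-255108373 on the plus strand.
Nfkbia: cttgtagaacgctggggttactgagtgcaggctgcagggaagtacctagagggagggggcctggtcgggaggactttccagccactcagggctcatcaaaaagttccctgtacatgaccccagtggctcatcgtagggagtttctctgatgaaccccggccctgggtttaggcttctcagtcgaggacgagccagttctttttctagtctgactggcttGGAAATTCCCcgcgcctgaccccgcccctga
Nfkb2: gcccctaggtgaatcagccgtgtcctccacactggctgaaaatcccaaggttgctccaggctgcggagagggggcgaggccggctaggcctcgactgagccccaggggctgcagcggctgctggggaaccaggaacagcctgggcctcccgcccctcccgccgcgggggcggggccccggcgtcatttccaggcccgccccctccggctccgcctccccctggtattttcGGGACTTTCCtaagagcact
The 10-base match began 31 bases upstream of the start in Nfkbia and 20 bases upstream in Nfkb2, and in Nfkb2 it was GGGACTTTCC. The κB consensus was searched on both strands, and 6.33% of the 33469 rat promoters of this length held a match, while GGGACTTTCC itself occurred in 0.0956%. Among the 8 members listed in the promoter table, Rel was the only other one with a match. Rela, Nfkb1, Nfkbib, Chuk and Ikbkg had none, which says only that these letters are absent from this window.

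The 75th percentile of the processed signal lay between 2824 and 6754 over the 6 arrays, 66.3% to 76.0% of the spots on an array were well above background, and no spot was saturated. All 11 measured oocyte markers were well above background on every array, as were 9 of the 10 granulosa cell markers. Saline replicates 2 and 3 stood apart. The summed signal of 11 adrenal medulla markers, relative to the 75th percentile of the array, was 94.9 and 57.9 on these 2 arrays and 3.52 to 6.41 on the other 4. For 10 adrenal cortex markers it was 320 and 413 against 5.51 to 17, with the widest ranges within the saline group at Cyp11a1, Mrap and Cyp21a1. Of the medulla markers 10 and 9 were well above background on these arrays and 4 to 6 on the others, and of the cortex markers all 10 against 6 to 7. Results are therefore also given without these 2 arrays, which leaves saline replicate 1 alone in its group, assumed to vary like the LPS arrays. The summed signal of 18 macrophage markers was 17.4 to 21.0 in the LPS group and 13.5 to 18.1 in the saline group, with 15 to 17 of the 18 well above background on each array. Of these 18 markers 4 were higher and none lower in the LPS group at an unadjusted p under 0.05, against 2.46% and 14.1% of all probes. Of the 14 well above background on every array 3 were higher and none lower, against 1.85% and 2.39% of all such probes. The part of the macrophage markers in the results on the members was not tested. Other marker lists also varied between arrays within both groups. The summed signal of 11 oviduct and epithelial markers was 88.4 in LPS replicate 1 and 88.0 in saline replicate 1 against 33.1 to 53.4 elsewhere, and that of 10 granulosa cell markers was 24.5 in LPS replicate 1 against 41.2 to 87.6. Saline replicate 1, the only control left once saline replicates 2 and 3 are dropped, is thus high for the epithelial markers. In whole ovaries, more cells of a type and more RNA per cell cannot be told apart.

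In the fit used here, no member gene was shown to differ between LPS-treated and saline-treated ovaries on PND 7. The paper, in contrast, lists Rela among the MAPK pathway genes that were higher on its arrays after LPS. It also reports Rela as significantly higher by quantitative PCR. At the study's criterion, a 2-fold difference with an unadjusted p under 0.05, 0 of the 8 probes passed, where 1.69% of all probes did. In the fit used here, at an unadjusted p under 0.05 alone, 1 probe was higher and 0 were lower, against 2.46% and 14.1% of all probes. Among probes well above background on every array these shares were 1.85% and 2.39%, and none of the 6 such member probes passed. With the replicate number as a block, the number of probes higher over the whole array was 1271 in place of 746. After Benjamini-Hochberg adjustment in limma 0.0% of all probes passed, none of the members among them. The median log2 fold change over the 8 probes was 0.05, beside -0.04 over all probes and 0.02 over the 18093 probes that were well above background on every array. The 95% confidence interval lay within 2-fold in either direction for 7 of the 8 probes, the exception being the dimmer probe of Rela, so that differences smaller than 2-fold remain possible at each of them.

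**Figure D1:**
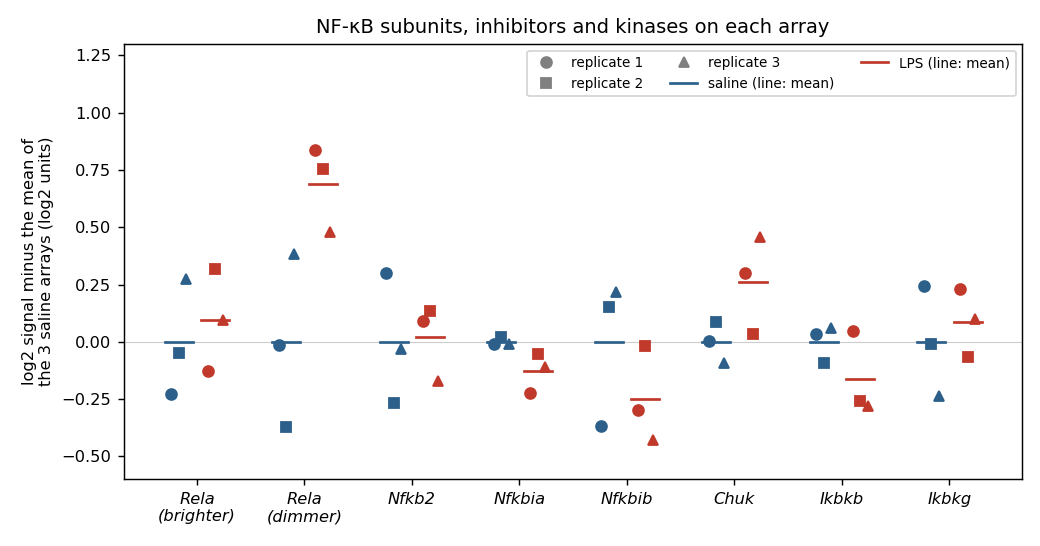
Normalised log2 signal of each member probe on each of the 6 arrays, as the difference from the mean of the 3 saline arrays of that probe (y axis, log2 units), with saline arrays in blue, LPS arrays in red, symbols for replicate numbers and lines for group means. The groups overlap at 6 of the 8 probes, all LPS arrays lie above the saline arrays at the dimmer Rela probe, and all lie below them at Nfkbia.

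Rela encodes p65, the subunit that carries the main transactivation domain of NF-κB. Its brighter probe had normalised log2 signals, relative to the 75th percentile of each array, of 0.70, 1.14 and 0.92 in LPS replicates 1 to 3 and of 0.60, 0.78 and 1.10 in saline replicates 1 to 3. Values below follow the same order. The saline values ran from below the lowest LPS value to near the highest, so the groups overlapped. LPS over saline gave a log2 fold change of 0.10 (SE 0.21, 95% confidence interval -0.41 to 0.60, limma adjusted p = 0.948), and the two-sided exact permutation test over arrays gave p = 0.7. With 3 arrays against 3 the smallest p this exact test can give is 0.1.

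The dimmer Rela probe behaved differently. It was printed as 1 spot per array, and its normalised log2 signals were -2.93, -3.01 and -3.29 after LPS and -3.78, -4.14 and -3.38 after saline. All LPS values lay above all saline values, although the lowest LPS value and the highest saline value were close. The log2 fold change was 0.69 (SE 0.24, 95% confidence interval 0.12 to 1.26), or 1.61-fold, with an unadjusted limma p = 0.0249, an adjusted p = 0.271 and an exact permutation p = 0.1. LPS was higher without overlap at 5.02% of all probes. This was the only member probe past the unadjusted threshold.

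Signal at that probe was weak. The scanner software placed it well above background in all 3 LPS replicates and in 2 of the 3 saline replicates, and its processed signal was 7.09 to 8.74 times the lowest signal well above background after LPS and 2.11 to 4.54 times after saline. Normexp background correction, in place of the scanner software's correction, was run with an offset of 50 added to the signals. Such an offset draws the fold changes of dim probes toward 0, and its share in the changes seen with normexp was not tested. With normexp the log2 fold change was 0.15 (unadjusted p = 0.353). It was no longer past the unadjusted threshold when LPS replicate 1 (unadjusted p = 0.0642), LPS replicate 2 (unadjusted p = 0.0747), saline replicate 1 (unadjusted p = 0.0535) or saline replicate 2 (unadjusted p = 0.0784) was left out. Without saline replicates 2 and 3 together it was 0.70 (unadjusted p = 0.0585).

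Both probes carry the accession of the same gene, so their responses were compared within each array. The log2 signal of the dimmer probe minus that of the brighter probe was -3.63, -4.15 and -4.20 after LPS and -4.38, -4.91 and -4.48 after saline. The difference was smaller in size on every LPS array than on any saline array, by 0.59 on the log2 scale between the group means (-4.00 ± 0.32 and -4.59 ± 0.29, SD, n = 3 each). The exact permutation test gave p = 0.1, the smallest possible, so an unequal response of the probes could not pass 0.05 with this number of arrays. With normexp background correction the probes were at log2 fold changes of 0.15 and 0.11, and the difference between them was 0.041. The offset in that correction draws the dimmer probe toward 0 more than the brighter one. Where the 2 probes lie in the transcript was not analysed here.

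Nfkb2 encodes p100, the precursor of the subunit p52, which serves the alternative pathway. The normalised log2 signals of its probe were 0.56, 0.61 and 0.30 after LPS and 0.77, 0.21 and 0.44 after saline. The saline arrays held both the highest and the lowest value. This left a log2 fold change of 0.02 (SE 0.21, 95% confidence interval -0.48 to 0.52, adjusted p = 0.995, exact permutation p = 1.0). Without saline replicates 2 and 3 it was -0.28, as saline replicate 1 held the highest value.

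Nfkbia was the steadiest of the members. The probe read normalised log2 signals of 2.58, 2.75 and 2.69 after LPS and 2.79, 2.82 and 2.79 after saline. Every LPS value was below every saline value, yet all 6 lay within 0.24 of each other. The log2 fold change was -0.13 (SE 0.15, 95% confidence interval -0.49 to 0.24), or 0.916-fold, with an adjusted limma p = 0.842 and an exact permutation p = 0.1. LPS was lower without overlap at 18.4% of all probes and at 5.75% of those well above background on every array. The SD within groups was 0.06, and 1.43% of the probes well above background on every array had a smaller one.

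Nfkbib encodes IκBβ, another inhibitor of the same family. On the normalised log2 scale it read -1.32, -1.04 and -1.46 after LPS and -1.39, -0.88 and -0.81 after saline. Saline replicate 1 fell among the LPS arrays, while saline replicates 2 and 3 were the highest. A log2 fold change of -0.25 was fitted (SE 0.23, 95% confidence interval -0.79 to 0.29, adjusted p = 0.747, exact permutation p = 0.3). It was 0.12 without saline replicates 2 and 3, the arrays that carried the adrenal markers.

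**Figure D2:**
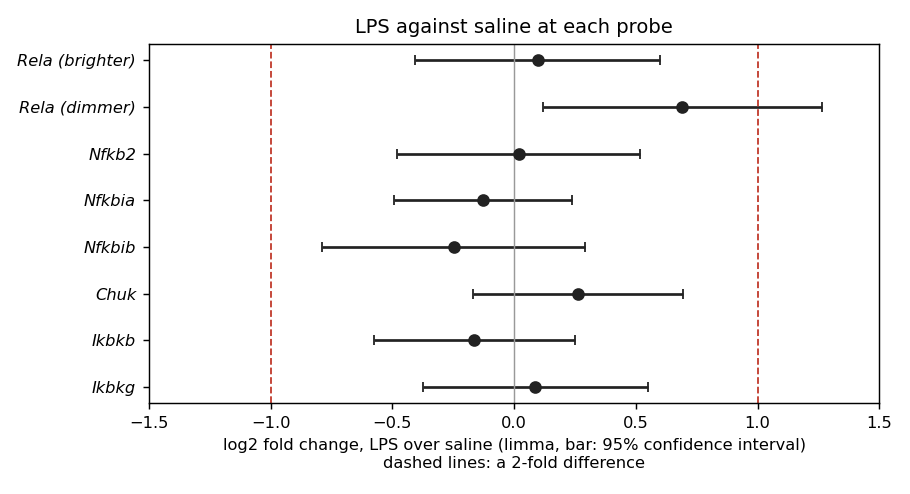
Log2 fold change of LPS over saline for each member probe (x axis) with its 95% confidence interval from limma, and dashed lines at a 2-fold difference. The intervals of 7 probes lie within the dashed lines and include 0, and that of the dimmer Rela probe runs from 0.12 to 1.26.

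The IκB kinase complex is built from the catalytic subunits IKKα and IKKβ, encoded by Chuk and Ikbkb, and the regulatory subunit NEMO, encoded by Ikbkg. Ikbkb, whose product drives the canonical pathway, had normalised log2 signals of -0.45, -0.76 and -0.78 after LPS and -0.47, -0.59 and -0.44 after saline. LPS replicates 2 and 3 were the lowest and LPS replicate 1 lay among the saline arrays. LPS replicates 2 and 3 were also the only arrays in the first row of the slide. A block on slide row therefore compares LPS replicate 1 alone with the saline arrays. Between the groups the log2 fold change was -0.16 (SE 0.17, 95% confidence interval -0.58 to 0.25, adjusted p = 0.805, exact permutation p = 0.3), and it was 0.048 once slide row entered as a block.

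Chuk had normalised log2 signals of -3.61, -3.87 and -3.45 after LPS and -3.90, -3.82 and -4.00 after saline. LPS replicates 1 and 3 were above every saline array and LPS replicate 2 was among them. LPS stood above saline by a log2 fold change of 0.26 (SE 0.18, 95% confidence interval -0.17 to 0.69, adjusted p = 0.597, exact permutation p = 0.2), the largest in size among the member probes that stood well above background on every array. Signal at this probe was also weak. It was 4.03 to 7.81 times the lowest signal well above background after LPS and 2.63 to 2.96 times after saline. With normexp background correction the log2 fold change was -0.0086.

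Ikbkg was the member closest to background, above it on all 3 LPS arrays and on 1 saline array. On the log2 scale its normalised signals were -4.45, -4.74 and -4.58 after LPS and -4.43, -4.69 and -4.91 after saline. The values of both groups were interleaved. The fitted log2 fold change was 0.09 (SE 0.19, 95% confidence interval -0.38 to 0.55, adjusted p = 0.949, exact permutation p = 0.7), and its direction changed with normexp background correction, with quantile normalization and without saline replicates 2 and 3.

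**Figure D3:**
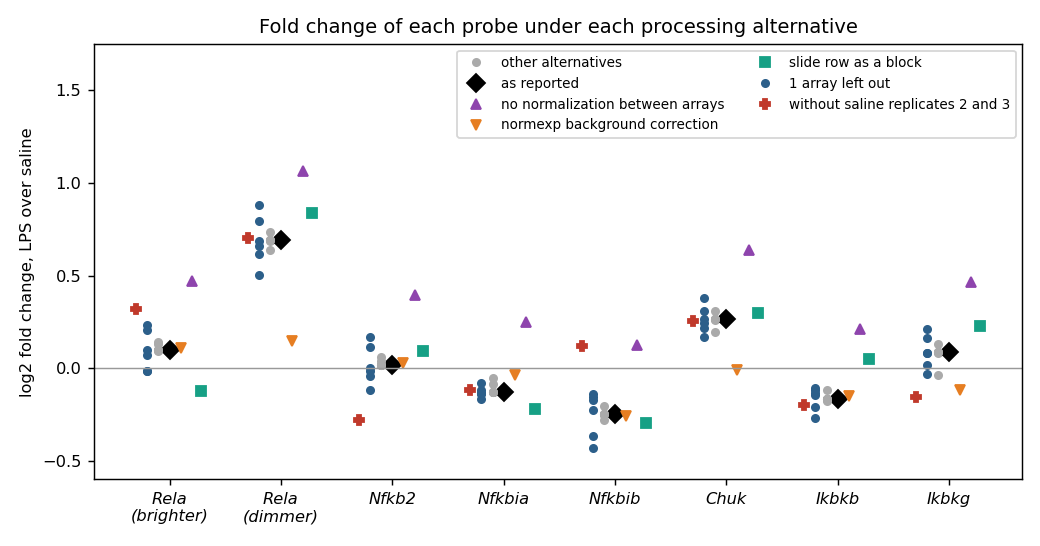
Log2 fold change of LPS over saline (y axis) for each member probe as reported (black diamonds) and under each processing alternative, which includes leaving out each array in turn. The dimmer Rela probe stays above 0 under every alternative shown, from 0.15 with normexp background correction to 1.07 without normalization between arrays, where the median over all probes was itself 0.34. The points of every other probe lie on both sides of 0.

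The rest of the pathway was read from 4 lists, which together held 94 genes with a probe. Of these genes 5 were higher and 8 lower at an unadjusted p under 0.05, against 2.46% and 14.1% of all probes, and none passed after adjustment in limma. The shares among probes well above background on every array were 1.85% and 2.39%. Among other IκB proteins and IKK-related kinases, 1 of 10 was higher and none was lower, with a median log2 fold change of 0.03. The gene was Ikbip, which encodes a protein that binds IKKβ. Its normalised log2 signals were -3.54, -3.72 and -3.26 after LPS and -4.32, -5.14 and -4.36 after saline. All LPS arrays were higher, by a log2 fold change of 1.10 (SE 0.27, unadjusted p = 0.00557, adjusted p = 0.271), and saline signal was well above background on 2 of 3 arrays. Ikbip thus met the study's 2-fold criterion, as 1.69% of all probes did. With normexp background correction, whose offset draws dim probes toward 0, the log2 fold change was 0.29 and no longer passed. In every fit that left out 1 array Ikbip kept an unadjusted p under 0.05, at log2 fold changes of 0.84 to 1.25. It was at 0.81 without saline replicates 2 and 3.

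Among upstream adaptors, kinases and ubiquitin ligases, none of 35 was higher and 1 was lower, with a median of 0.02. The lower gene, named after its values were seen, was Myd88, the adaptor of Toll-like receptor 4, at a log2 fold change of -0.54 (SE 0.22, unadjusted p = 0.0475). Its normalised log2 signals were 0.04, -0.16 and -0.21 after LPS and 0.03, 0.67 and 0.59 after saline. Only saline replicates 2 and 3 were high, the groups overlapped, and the log2 fold change was -0.14 without them. With the replicate number as a block Myd88 no longer passed (unadjusted p = 0.0703), and Traf6, a ubiquitin ligase that did not stand well above background anywhere and was named after its values were seen, passed as higher (unadjusted p = 0.0204 in place of 0.169). The list then held 1 higher and none lower. Of the fits that left out 1 array, only that without saline replicate 1 kept Myd88 under 0.05. None of 12 brakes on the pathway, such as deubiquitinases and decoy regulators, passed in either direction, with a median of -0.17 beside -0.10 for those well above background on every array. With the replicate block 1 was lower, Pdlim2, a ubiquitin ligase that acts on p65 and was named after its values were seen, at -0.88 (unadjusted p = 0.0385 in place of 0.102), and 0.18 without saline replicates 2 and 3.

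NF-κB target genes were the largest list, with 39 of 42 measured. The median log2 fold change was -0.18 over all 39 and 0.03 over the 24 well above background on every array. There were 4 higher and 7 lower, and 4 of the lower ones (Cxcl1, Cxcl2, Bcl2a1 and Il6, named after their values were seen) did not stand well above background anywhere. Of the 24 well above background on every array, 3 were higher and 2 lower. With the replicate block 3 of the 39 were higher and 9 lower. Tnf and Cflar were lost, the chemokine gene Ccl5 was gained as higher, and Sele and Ptgs2, which did not stand well above background anywhere, were gained as lower. The count of lower genes over the 4 lists was 0 without saline replicates 2 and 3.

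Ptx3, a secreted pattern recognition protein, had normalised log2 signals of -0.83, -1.22 and -1.17 after LPS and -1.56, -1.75 and -2.03 after saline. The groups did not overlap, at a log2 fold change of 0.70 (SE 0.20, unadjusted p = 0.0115, adjusted p = 0.271), which was 0.49 (unadjusted p = 0.158) without saline replicates 2 and 3. At its second probe, which no saline replicate raised well above background, the groups overlapped. Cflar, which encodes the caspase-8 inhibitor c-FLIP, had normalised log2 signals of -1.93, -2.30 and -2.41 after LPS and -3.03, -2.85 and -2.55 after saline. All LPS arrays were higher, at a log2 fold change of 0.60 (SE 0.22, unadjusted p = 0.0294, adjusted p = 0.276) and of 0.63 at a second probe. At the first probe the unadjusted p was 0.0546 with the replicate number as a block, and 0.0611 to 0.0829 when saline replicate 1, saline replicate 2, LPS replicate 1 or LPS replicate 2 was left out.

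The other 2 higher target genes, named after their values were seen, were Tnf and Ccl7. Tnf, the cytokine that also activates the pathway, was at a log2 fold change of 0.63 (SE 0.26, unadjusted p = 0.0468), with groups that overlapped. It passed in only 2 of the 6 fits that left out 1 array, those without saline replicate 2 and without LPS replicate 3, and with the replicate block its unadjusted p was 0.0607. Ccl7, a monocyte chemoattractant, was well above background on 2 LPS arrays and on no saline array.

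Sod2, the mitochondrial superoxide dismutase, was lower in the LPS group. Its normalised log2 signals were 0.46, 0.70 and 0.69 after LPS and 0.70, 2.15 and 2.09 after saline. Saline replicate 1 lay with the LPS arrays, and saline replicates 2 and 3 were far above them. The log2 fold change was -1.03 (SE 0.40, unadjusted p = 0.0380, adjusted p = 0.286) and -0.09 without these 2 arrays. Of the fits that left out 1 array, only that without saline replicate 1 kept an unadjusted p under 0.05. The remaining lower genes, Cxcl10 and Mmp9, named after their values were seen, were also highest on saline replicates 2 and 3, and their log2 fold changes were -1.33 and -0.80 with these arrays and -0.05 and -0.36 without them. Cxcl10 kept an unadjusted p under 0.05 only where the array left out was saline replicate 1, and Mmp9 lost it when saline replicate 2 or 3 was left out. Mmp9 did not stand well above background throughout either treatment.

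**Figure D4:**
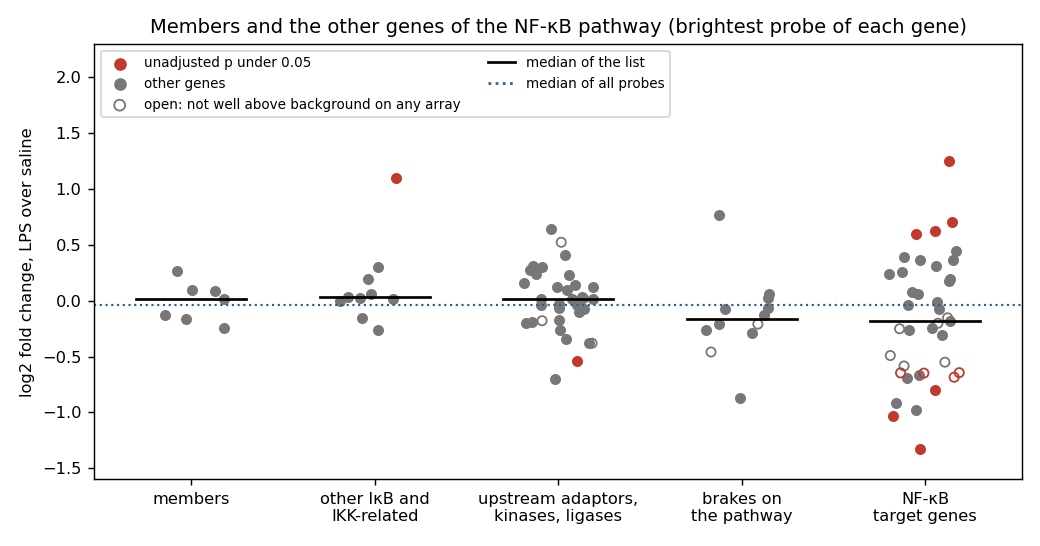
Log2 fold change of LPS over saline (y axis) for the brightest probe of each gene in the member set and in 4 other lists of the NF-κB pathway, with red for an unadjusted p under 0.05, open symbols for genes that never stood well above background, black lines for list medians and a dotted line for the median of all probes. All member genes lie between -0.25 and 0.26, and the target genes spread from -1.33 to 1.25.

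Genes with and without a κB match in the promoter were set side by side, and the difference between them was not tested. Among genes with a probe well above background on every array, the median log2 fold change was 0.01 over the 709 genes with a match to the κB consensus in the 250 upstream bases and 0.02 over the 7475 genes without one. At an unadjusted p under 0.05, 1.83% of the genes with a match were higher and 3.95% lower, beside 1.81% and 2.60% of those without. Nfkbia and Nfkb2, at -0.13 and 0.02, lay near these medians.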

How the data were processed

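Ovarian RNA of 6 samples (3 LPS, 3 saline) was measured on 1 slide in 1 scan. The authors deposited Agilent scanner files with 62976 spots an array, made with Feature Extraction 10.5.1.1 per the file headers, whose processed signal intensity is background-corrected within each array and not normalized between arrays. A value table of the same intensity, equal to it within 0.5%, was also deposited. The submitters' processing notes name lumi without saying how it was used. The gene name column was empty, so symbols were taken through RefSeq accessions. In this way 17998 of 30367 probes had a symbol, 3408 had a RefSeq accession that matched none, and 8961 had no RefSeq accession.

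Outlier spots were removed, repeat spots of a probe were averaged, each array was scaled to its own 75th percentile of processed signal, and the log2 values were tested with limma 3.58.1 in R 4.3.3 over all probes, with Benjamini-Hochberg adjustment. A log2 value of 0 is therefore the 75th percentile of that array, and levels of different probes were not compared. No filter on dim probes was applied, at least 2 unflagged arrays a group were required, and a probe was called well above background on an array where the majority or an equal share of its spots were. Exact permutation tests were two-sided (scipy 1.17.1). The number of arrays limits the precision. The scripts were tested on simulated data.

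Every member probe was named, and from the other pathway lists genes (brightest probe) with an unadjusted p under 0.05 whose groups did not overlap and whose signal stood well above background throughout 1 treatment or both. Marker genes were named by the widest range within a group. The members and lists were chosen with earlier results of these data known. The labels give both groups replicate numbers 1 to 3. Deviations of same-numbered arrays from their group means correlated at 0.30, 0.22 and 0.25. Between arrays of unlike number the correlations ran from -0.27 to 0.16. Deviations within a group sum to 0, so these correlations are not independent of each other. The numbers were therefore taken as a possible pairing, which entered only in the fits named as a replicate block. The main limma fit and the exact permutation tests treated the arrays as unpaired. The pairing rests on the correlations alone. Alternatives covered background correction, normalization, dim and outlier spots, slide row, pairing, the test, the value table and each array left out. Normexp background correction used an offset of 50, which draws fold changes of dim probes toward 0. Probe sequences and the layout of pups and litters over arrays were not analysed here.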

Additional observations from a re-analysis of the deposited data

How the results depend on the processing

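Of 19 alternatives, none gave a member an adjusted p under 0.05, and no member gene passed at its brightest probe. Directions of member probes that had not passed any threshold did change. With normexp background correction Chuk was at -0.0086 and Ikbkg at -0.12. With quantile normalization Ikbkg was at -0.036. Without normalization between arrays, where the median of all probes was 0.34, Ikbkb was at 0.21, Nfkbia at 0.25 and Nfkbib at 0.13. Relative to that median they were at -0.12, -0.09 and -0.21. In the fit blocked on slide row, which compares LPS replicate 1 alone with saline, the brighter Rela probe was at -0.12 and Ikbkb at 0.048. Without saline replicates 2 and 3 Nfkb2 was at -0.28, Nfkbib at 0.12 and Ikbkg at -0.16. Leaving out 1 array moved the brighter Rela probe between -0.017 and 0.23, the dimmer one between 0.50 and 0.88, Nfkb2 between -0.11 and 0.17, Ikbkg between -0.030 and 0.21, Nfkbia between -0.16 and -0.08, Nfkbib between -0.43 and -0.14, Chuk between 0.17 and 0.38, and Ikbkb between -0.27 and -0.11. The causes were not tested.

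The dimmer Rela probe, 0.69 as reported, was no longer past the unadjusted threshold with normexp (0.15), slide row as a block (0.84) or without saline replicates 2 and 3 (0.70). The count of member probes higher was then 0 in place of 1, and 0 to 1 with 1 array left out. Without normalization between arrays 1 member probe, the dimmer one of Rela, met the 2-fold criterion in place of 0. With the replicate block the dimmer Rela probe kept its call (unadjusted p = 0.0425), and among the members no call changed. The difference in log2 fold change between the Rela probes, 0.59 as reported, was 0.041 with normexp and 0.38 to 0.96 under the other alternatives.

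Over all probes, the 513 at 2-fold became 1230 without normalization, 282 with normexp, 312 with only probes well above background, 291 with quantile normalization, 1555 blocked on slide row, 148 with the methods' t-test, 1000 without saline replicates 2 and 3, and 250 to 1131 with 1 array left out. The 746 higher became 1606 without normalization, 319 with normexp, 1271 with the replicate block, 2095 blocked on slide row, and 416 to 1355 with 1 array left out. The 4272 lower became 238 without normalization, 1440 with normexp, 558 with only probes well above background, 688 with quantile normalization, 183 blocked on slide row, 986 without saline replicates 2 and 3, and 1187 to 5841 with 1 array left out. The lowest of these leave-one-out counts came without saline replicate 2 and the highest without saline replicate 1, where 290 probes passed after adjustment, none of them a member. Among the 94 other pathway and target genes, the 5 higher became 9 without normalization, 2 with normexp, and 4 to 6 with 1 array left out. The 8 lower became 0 without normalization or blocked on slide row, and 3 with only probes well above background or with quantile normalization. With 1 array left out they became 0 (without saline replicate 2) to 18 (without saline replicate 1). Among the genes outside the member set, Pdlim2 was at 0.18 without saline replicates 2 and 3, and Traf6, which never stood well above background, was at -0.11 with normexp and at -0.029 without those arrays. Treatment effects blocked on slide row rest on LPS replicate 1 alone in the LPS group. Those without saline replicates 2 and 3 rest on saline replicate 1 alone in the saline group. Dim probes such as Ikbkg, Chuk and the second Rela probe are limited by signal over background, and 3 arrays a group limit all probes.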
